A study of Mus musculus with 24 samples.

Results

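The enzymes that join glutathione, glucuronic acid or sulfate to drugs, bile acids, steroids and reactive metabolites were measured as 45 genes in the distal jejunum of wild type and Ptk6-/- mice. They were chosen by name among the 34471 genes with deposited FPKM values (read fragments scaled by transcript length and by library depth). A gene entered when it was protein coding, its symbol began with the name of a glutathione S-transferase (Gsta, Gstk, Gstm, Gsto, Gstp, Gstt, Gstz, Mgst), a UDP-glucuronosyltransferase (Ugt1a, Ugt2a, Ugt2b) or a cytosolic sulfotransferase (Sult1 to Sult6), and 3 or more of the 24 libraries counted it 10 times or more. Of 55 genes with such symbols, 52 were protein coding and 45 had enough counts, namely 25 glutathione transferases, 12 glucuronosyltransferases and 8 sulfotransferases. The 7 protein coding genes under the count limit were Gstt4, Sult1e1, Ugt1a2, Ugt1a5, Ugt2a2, Ugt2b1 and Ugt2b37, and the 3 that were not protein coding were Gstm2-ps1, Gstp-ps and Sult6b2. Of the 45 members, 32 had at least 10 counts in all 24 libraries.

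The study compared 8 groups of 3 mice, made up of wild type or Ptk6-/- genotype, male or female sex, and regular drinking water (control) or water with 100 mM succinate for 7 days. Ptk6 encodes an intracellular tyrosine kinase of epithelial cells, and the Ptk6-/- mice carry a germline disruption in a C57BL/6 background, so that all cells of the gut lack it. Polyadenylated RNA of whole distal jejunum was sequenced from each mouse, so that epithelium, muscle and immune cells were read together, and fewer cells of a type and less RNA per cell cannot be told apart.

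Conjugation is the step that makes fat-soluble compounds soluble enough to be exported. Glutathione transferases attach glutathione to electrophiles, including products of lipid peroxidation, and some membrane-bound members also take part in leukotriene synthesis. Glucuronosyltransferases sit in the endoplasmic reticulum and use UDP-glucuronate to conjugate bilirubin, bile acids, steroids and phenols, and sulfotransferases use the sulfate donor PAPS on phenols, catecholamines and sterols. In the small intestine these enzymes are made mainly by absorptive enterocytes and act on compounds taken up from food and bile. Succinate in drinking water is known to act through tuft cells, chemosensory cells of the epithelium, and to set off a type 2 immune response.

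The promoters of 5 members are shown, 4 that hold at least 1 of the motifs searched and Gstp2 as the near copy of Gstp1. Other members also held a match and are not shown, among them Ugt1a9, Sult1b1, Sult2b1, Gsta1 and Mgst3. They were read from the RefSeq annotation of GRCm38.p6, and each is given 5′ to 3′ on the gene's own strand as the 120 bases that end just before the annotated start of transcription. Capitals mark letters that match, on either strand, the core of the antioxidant response element (TGACNNNGC), the core of the xenobiotic response element (GCGTG) or most of the palindrome bound by HNF1 factors (GTTAAT, any base, then ATT). Ugt1a1 on the plus strand is shown from chr1:88211839-88211958, Sult1d1 on the minus strand from chr5:87569007-87569126, Mgst1 on the plus strand from chr6:138140407-138140526, and the near copies Gstp1 and Gstp2 on the minus strand from chr19:4037913-4038032 and chr19:4042222-4042341.
Ugt1a1: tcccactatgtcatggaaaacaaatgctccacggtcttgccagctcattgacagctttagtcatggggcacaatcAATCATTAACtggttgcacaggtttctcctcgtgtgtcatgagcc
Sult1d1: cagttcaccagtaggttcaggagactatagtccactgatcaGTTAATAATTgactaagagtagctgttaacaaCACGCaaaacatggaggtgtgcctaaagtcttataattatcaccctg
Mgst1: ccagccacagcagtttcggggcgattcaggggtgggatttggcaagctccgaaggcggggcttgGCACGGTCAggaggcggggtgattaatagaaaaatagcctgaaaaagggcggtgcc
Gstp1: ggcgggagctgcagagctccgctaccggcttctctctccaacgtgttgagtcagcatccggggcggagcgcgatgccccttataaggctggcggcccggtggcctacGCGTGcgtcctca
Gstp2: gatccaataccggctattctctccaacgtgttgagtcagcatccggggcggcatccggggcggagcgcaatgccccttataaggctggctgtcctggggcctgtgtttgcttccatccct
The HNF1 letters began at position -45 in the Ugt1a1 promoter, on the opposite strand, and at position -79 in the Sult1d1 promoter, counted from the start of transcription. Mgst1 has a second annotated start, and the 120 bases before it (chr6:138141467-138141586) held none of the 3 motifs. Nor did the same window of Ugt2b34, Ugt2a3, Ugt2b5 and Gsto1. Of the 45 members, 40 were matched to a promoter of 300 bases (250 before and 50 after the start). The HNF1 letters stood in 3 of the 40 (7.5%), namely Ugt1a1, Ugt1a9 and Sult1d1, and in 0.47% of the promoters of all 27025 genes. The antioxidant core stood in 4 of the 40 (10%) and in 14% of all genes, and the xenobiotic core in 10 of the 40 (25%) and in 35.2% of all genes. A match describes letters in this window only, and binding was not measured.

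Libraries held 8080321 to 52824743 counts (median 43017686.5), and the 45 members together took 0.13 to 0.394% of them. Ptk6 was read at 0.305 to 1.92 CPM (counts scaled to a common library size by the trimmed mean of M-values) in the 12 Ptk6-/- libraries and at 9.21 to 48.8 CPM in the 12 wild type libraries. Of the 24 libraries, 3 stood apart. Wild type male control replicate 1 and Ptk6-/- male succinate replicate 1 gave 51.2% and 29.7% of their counts to the ribosomal RNA gene Rn18s-rs5. Wild type female succinate replicate 2 held Y-linked transcripts at 74.3 CPM, where the other females read up to 0.971 CPM, together with Xist at 79.1 CPM, where the other females read 92.1 to 184 CPM and males up to 1.66 CPM. The same library held heart muscle transcripts at 20340 CPM, where no other library passed 224.9 CPM. Libraries also differed in how counts followed transcript length: the slope on log2 length of a library's log2 CPM, each gene taken relative to its mean over libraries, ran from -0.148 in Ptk6-/- male succinate replicate 1 to 0.141 in Ptk6-/- male control replicate 1.

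On the FPKM scale, which allows levels of different genes to be set side by side, a few glutathione transferases dominated. Mgst3, a membrane-bound transferase and peroxidase, had the highest mean over the 24 libraries (177 FPKM, range 75.6 to 472), ahead of Gstp1, the pi-class cytosolic enzyme (148), and Gsto1, the omega-class enzyme that reduces dehydroascorbate (143). These 3 genes held 46.3% of the summed mean FPKM of the members, the leading 5 held 60.8% and the leading 10 held 79.7%. The leading sulfotransferases were Sult1b1, which acts on phenols and thyroid hormones (68.3 FPKM), Sult2b1, which acts on cholesterol and pregnenolone (35.8), and Sult1d1, which acts on catecholamines and phenols (26.9). The leading glucuronosyltransferases were Ugt1a1, the bilirubin enzyme (37.6 FPKM), Ugt2b34 (31.8) and Ugt1a7c (14.2).

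Other glutathione transferases included the microsomal enzymes Mgst1 (52.9 FPKM) and Mgst2 (28.1), the mu-class enzymes Gstm3 (34.2) and Gstm1 (25.9), and the alpha-class enzyme Gsta1 (22.8). Gstk1, the kappa-class enzyme of mitochondria and peroxisomes, stood at 9.66 FPKM, Gsta4, which conjugates hydroxynonenal from lipid peroxidation, at 9.52, and Gstz1, which also works in tyrosine breakdown, at 3.80. The leading theta-class gene was Gstt1 (7.28 FPKM), the leading Ugt2a gene Ugt2a3 (6.15) and the leading gene of the minor sulfotransferase families Sult4a1 (1.05). Within every library Mgst3 read above Gstp2, by the least in Ptk6-/- male succinate replicate 1 (82.8 against 82.3 FPKM). Gstp1 and Gsto1 stood above Mgst3 in some libraries and below it in others. Gsto1 read 312 FPKM against 235 for Mgst3 in Ptk6-/- female succinate replicate 2. In Ptk6-/- female control replicate 3 it read 190 against 472. Summed over members of a class, glutathione transferases held 64.9 to 90.8% of the FPKM of a library (median 73.6%), sulfotransferases 7.38 to 17.4% (median 14.8%) and glucuronosyltransferases 1.64 to 18.6% (median 11.2%). The glucuronide class therefore had the widest relative range between libraries.

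**Figure D1:**
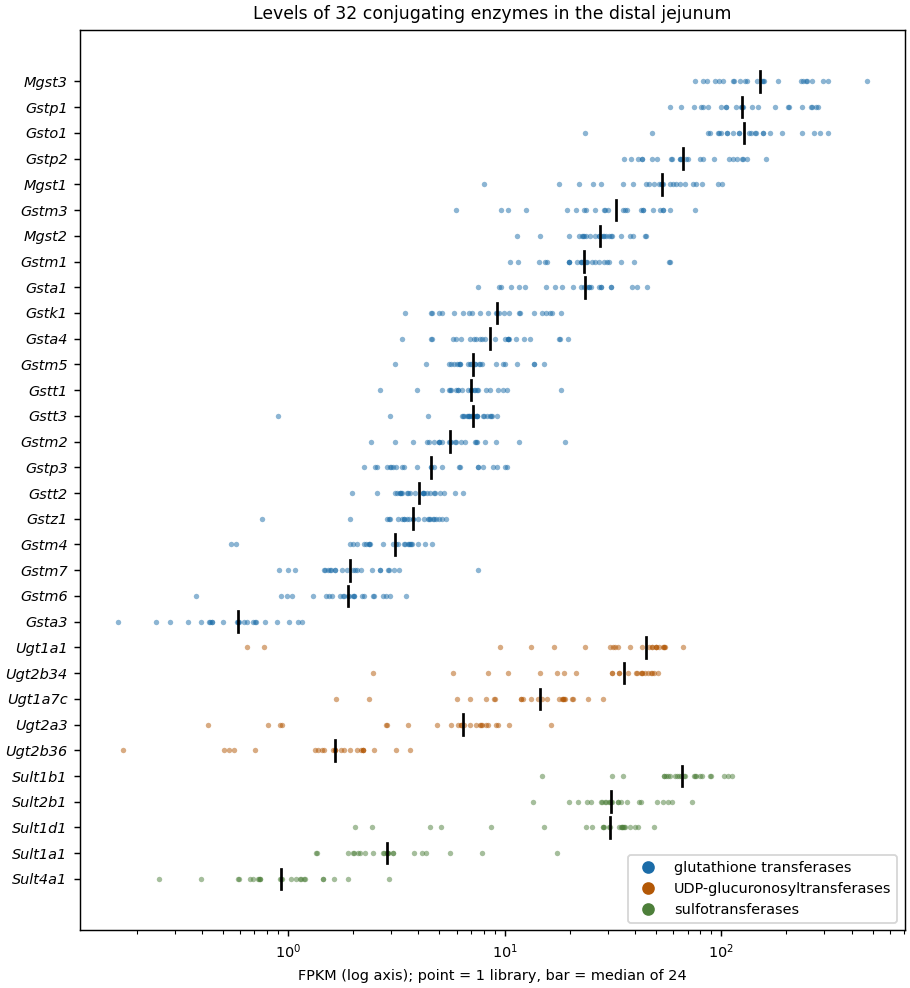
Levels of the 32 members with at least 10 counts in every library, in FPKM on a log axis; each point is 1 of 24 libraries and the bar is the median. Mgst3, Gstp1 and Gsto1 lie highest, and the points of Ugt1a1, Ugt2a3 and Sult1d1 reach far below their medians.

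Several members shared a stretch of the genome. In the files' coordinates (GRCm39), 9 members lay on chromosome 5 between 87037626 and 87716886, namely Ugt2b34, Ugt2b35, Ugt2b36, Ugt2b38, Ugt2b5, Ugt2a1, Ugt2a3, Sult1b1 and Sult1d1. Ugt2b34 lies at chr5:87037626-87054796, Ugt2a3 at chr5:87472831-87485054, Sult1b1 at chr5:87661198-87686054 and Sult1d1 at chr5:87702504-87716886, all on the minus strand. The 5 Ugt1a genes lie on chromosome 1, where alternative first exons join shared last exons. Ugt1a1 is annotated at chr1:88139681-88146719 on the plus strand. Mgst1 lies at chr6:138117314-138133753 (plus), Mgst3 at chr1:167199535-167221410 (minus), Gsto1 at chr19:47843409-47853229 (plus), Gstp1 at chr19:4085407-4087985 (minus) and Sult4a1 at chr15:83960298-83989955 (minus).

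Averaged over sexes and genotypes, 11 of 12 glucuronosyltransferases were lower with succinate (median log2 fold change -0.60), and 5 of 8 sulfotransferases were lower. Of 25 glutathione transferases 17 were higher (median 0.16), but this differed between groups. They were higher in 16 of 24 genes in wild type males and 20 of 24 in Ptk6-/- males. In females they were higher in 12 of 24 genes in wild type and 9 of 24 in Ptk6-/- mice. The remaining glucuronosyltransferase, Ugt2a1, reached 10 counts in 3 libraries only, all of succinate-treated males, so its direction is not read. Leaving it out, the median of the 11 others was -0.68. With Ugt2a1 counted, 9 of the 12 glucuronosyltransferases were lower without the 3 libraries that stood apart (median -0.54). Without wild type female succinate replicate 3 their median was -1.11. No single member passed an adjusted p of 0.05 in edgeR, where 1.03% of all genes did. At an unadjusted p under 0.05, 2 members were higher and 7 lower, against 9.17% of all genes higher and 6.94% lower. DESeq2 called 2 (Sult4a1 and Sult1c2; 3.72% of all genes) and limma-voom with sample quality weights called 15, where it called 21.9% of all genes. Without wild type female succinate replicate 3, edgeR called 8 members, all lower with succinate (5.49% of all genes), among them Ugt2a3 at -1.51, Sult1d1 at -1.32 and Ugt2b34 at -1.01. The class counts are descriptions, since all members were read in the same 24 mice and some of them share exons or near-identical sequence.

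Ugt1a1 showed the widest spread of the well-measured members, 107.7-fold between the lowest and highest library. That spread rests on the lowest library, at 1.91 CPM, where the next lowest read 7.68 CPM. It was read at 151, 152 and 137 CPM in wild type male controls, at 139.7, 149 and 149.5 CPM in Ptk6-/- male controls, at 152, 103 and 206 CPM in wild type female controls and at 112, 139.9 and 197 CPM in Ptk6-/- female controls. With succinate it was read at 112, 95.4 and 102.5 CPM in wild type males, 7.68, 118.5 and 141 CPM in Ptk6-/- males, 30.1, 41.6 and 144.8 CPM in wild type females and 82.6, 1.91 and 41.2 CPM in Ptk6-/- females. The 12 control libraries stayed between 103 and 206 CPM, and 8 of the 12 succinate libraries lay under that range. The average log2 fold change was -1.03 ± 0.42 (SE, 12 libraries against 12, adjusted p = 0.2357).

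Ugt2a3, a glucuronosyltransferase of bile acids, was low in some of the same libraries. Its controls lay between 13.0 and 48.3 CPM with a median of 21.2, and its succinate libraries between 1.297 and 23.5 CPM with a median of 11.9. The lowest values were 1.297 and 2.78 CPM in wild type females and 2.27 CPM in a Ptk6-/- female, all with succinate (log2 fold change -1.01 ± 0.36, adjusted p = 0.1898). Ugt2b34 ran from 132.5 to 258 CPM in controls (median 223.8) and from 35.2 to 274 CPM with succinate (median 129.8, log2 fold change -0.68 ± 0.30, adjusted p = 0.2666). In each of the 2 genes, 6 of the 12 succinate libraries lay under every control, and the rest overlapped with them.

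The sulfotransferase Sult1d1, a chromosome 5 neighbour of these genes, was read at 61.4 to 166 CPM in controls (median 106.5) and 8.498 to 117.5 CPM with succinate (median 76.6). Its lowest 4 values were 8.498 and 17.8 CPM in wild type females, 14.6 CPM in a Ptk6-/- female and 21.7 CPM in a Ptk6-/- male, each given succinate (log2 fold change -0.85 ± 0.34, adjusted p = 0.2346). Mgst1, a microsomal glutathione transferase, ran from 99.3 to 281 CPM in controls (median 151.6) and from 50.8 to 272 CPM with succinate (median 115.6, log2 fold change -0.48 ± 0.19, adjusted p = 0.2233). Of the 32 members with at least 10 counts in every library, 5 had succinate-treated mice in all of their 5 lowest libraries. These were Mgst1, Sult1d1, Ugt1a1, Ugt2a3 and Ugt2b34. In 14 of the 32 members 2 of the 5 lowest libraries were succinate-treated, and in 3 members 1 was. Neither these counts nor those of succinate libraries under every control were made over all genes. Sult1c2 (-1.22 ± 0.44, adjusted p = 0.1902) and Ugt2b5 (-0.88 ± 0.32, adjusted p = 0.1993) were lower by estimates of the same order, at fewer counts. Without the 3 libraries that stood apart, the estimates were -0.82 for Ugt1a1, -0.48 for Ugt2b34, -0.81 for Ugt2a3, -0.68 for Sult1d1, -0.36 for Mgst1, -1.08 for Sult1c2 and -0.65 for Ugt2b5.

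In the other direction, Sult4a1, a brain-enriched sulfotransferase without a settled substrate, had the smallest p with succinate. It was read at 1.69 to 5.25 CPM in controls (median 2.64) and 2.11 to 10.1 CPM with succinate (median 4.02, log2 fold change 0.59 ± 0.18, adjusted p = 0.1377). Gsto1 ran from 201 to 634 CPM in controls (median 292.7) and from 206.5 to 827 CPM with succinate (median 400.1, log2 fold change 0.46 ± 0.21, adjusted p = 0.286). Gstm5 (0.48 ± 0.23), Gstp3 (0.63 ± 0.35) and Gstm4 (0.29 ± 0.16) followed, with adjusted p from 0.311 to 0.3926. Without the 3 libraries that stood apart, Gstp3 stood at 0.29 and Gstm5 at 0.28, and Sult4a1 (0.50), Gsto1 (0.46) and Gstm4 (0.24) moved less. For each of these genes the control and succinate ranges overlapped.

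Tuft cell markers were summed beside these values. The summed level of 10 tuft markers was 58.5 to 83.1 CPM in all control groups, 384.7, 324.7 and 135.9 CPM in wild type females given succinate and 198.5, 375.6 and 403.4 CPM in Ptk6-/- females given succinate. It was 99.1 to 133 CPM in wild type males and 54.3 to 100.2 CPM in Ptk6-/- males given succinate, and 8 of the 10 markers rose on average. Ptk6-/- male succinate replicate 1, with Ugt1a1 at 7.68 CPM, had a tuft sum of 54.3 CPM and an enterocyte sum of 54500 CPM. Wild type female succinate replicate 3, which had the lowest tuft sum of the succinate-treated females, read Ugt1a1 at 144.8 CPM, Ugt2b34 at 233.6 CPM and Sult1d1 at 117.5 CPM, within the ranges of the controls. Ptk6-/- female succinate replicate 3, with the highest tuft sum of 403.4 CPM, read Ugt1a1 at 41.2 CPM and Ugt2a3 at 6.51 CPM, under every control, but Ugt2b34 at 147.7 CPM within their range and Ugt1a7c at 130.5 CPM, the highest of the 24 libraries. The summed level of 10 enterocyte markers was 47200 to 53440 CPM in wild type female controls and 27230 to 36670 CPM with succinate, and it was 22710 to 56510 against 18060 to 22180 CPM in Ptk6-/- females. In males it was not lower throughout, at 31350 to 33530 CPM in wild type controls against 20520, 45170 and 36680 CPM with succinate, and 22160 to 34480 CPM in Ptk6-/- controls against 54500, 34400 and 37790 CPM with succinate. Averaged over groups, 5 of the 10 enterocyte markers were lower and 1 higher at an unadjusted p under 0.05, with a median of -0.57. None of the 10 enterocyte markers was at 0 in any library, and 3 of the 10 tuft markers were at 0 in at least 1. The part of these cell markers in the members' values was not tested.

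**Figure D2:**
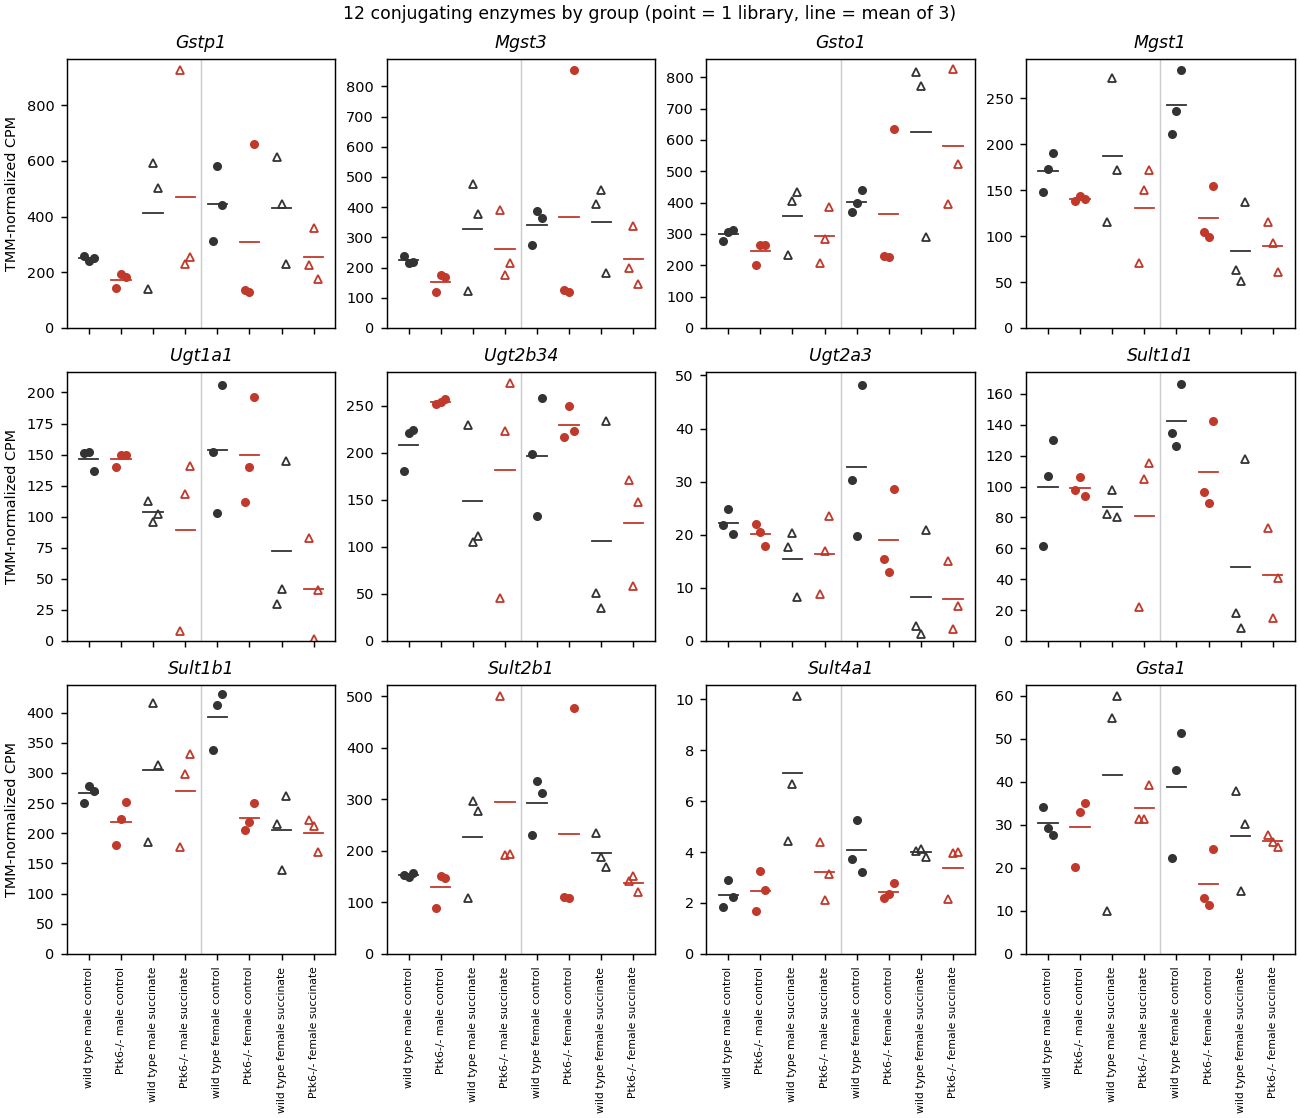
CPM of 12 members in the 8 groups; each point is 1 mouse and the bar is the group mean of 3. Ugt1a1, Ugt2b34, Ugt2a3 and Sult1d1 are low in several succinate libraries, mostly of females, while wild type female succinate replicate 3 lies among the controls.

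Within wild type females, all 9 glucuronosyltransferases tested were lower with succinate (median -1.05), and 8 of 40 members had groups that did not overlap, all lower, against 13.3% of all genes not overlapping. The median of the 9 was -0.54, with 7 lower, without succinate replicate 2, the library with heart transcripts, and -2.35 without replicate 3. Other cell markers moved in these libraries too. The smooth muscle sum was 3225 to 4122 CPM in controls and 7649, 7441 and 3859 CPM with succinate, and the fibroblast sum was 419 to 480 against 987.6, 755.1 and 568.5 CPM. The sum of proximal small intestine markers was 1605 to 2213 CPM in controls and 1159, 684.9 and 1630 CPM with succinate. Replicate 3 thus lay among the controls for smooth muscle and proximal markers, and the part of these markers was not tested. None of the 40 members was called by edgeR (adjusted p under 0.05 and at least a 2-fold change; percent of all genes called 0), 3 were lower at an unadjusted p under 0.05 (5.28% of all genes higher, 2.49% lower), DESeq2 called 1, Mgst1 (1.37% of all genes), and voom called 0. Mgst1 was read at 211, 236.8 and 281 CPM in controls and 63.2, 50.8 and 137 CPM with succinate (log2 fold change -1.52 ± 0.41, adjusted p = 0.5496), with no overlap between the groups. Sult1b1 was read at 337.5, 412 and 431 CPM and at 215.6, 139 and 262.5 CPM (-0.92 ± 0.33, adjusted p = 0.6172), again without overlap. Without wild type female succinate replicate 3, edgeR called 7 members, all lower, with Sult1d1 at -3.39 and Mgst1 at -2.05, where it called 3.23% of all genes. The remaining wild type female succinate replicates include the library with Y-linked and heart transcripts.

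In Ptk6-/- females, 6 of 10 glucuronosyltransferases were lower with succinate (median -0.90, -0.45 without succinate replicate 2 and -1.55 without succinate replicate 1). Of 42 members tested, edgeR called 0 (0.0879% of all genes), 1 was higher and 2 lower at an unadjusted p under 0.05 (4.81% of all genes higher, 5.84% lower), DESeq2 called 1 (Sult1c2; 2.24% of all genes) and voom called 2 (1.03% of all genes). The smallest p belonged to Sult1c2 (-1.84 ± 0.51, adjusted p = 0.3501), which was read at 1.512, 1.296 and 1.934 CPM in controls and 0.701, 0.355 and 0.288 CPM with succinate. Sult1d1 was read at 96.7, 89.0 and 142.5 CPM in controls and 72.9, 14.6 and 40.8 CPM with succinate (-1.39 ± 0.54, adjusted p = 0.4447), with no overlap between the groups. Gstm4 was higher (0.81 ± 0.28, adjusted p = 0.4201), at 3.968, 4.185 and 5.889 CPM in controls and 9.245, 8.425 and 7.445 CPM with succinate. Ugt1a1 was lower by a wide and uncertain margin (-1.87 ± 0.99, adjusted p = 0.5296).

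In males the glucuronosyltransferases were lower in 8 of 9 genes in each genotype, with medians of -0.45 in wild type and -0.46 in Ptk6-/- mice. The Ptk6-/- median was -0.15 without replicate 1 of the succinate group, the shallow library. The wild type median was -0.25 without succinate replicate 3, and on the log2(FPKM + 1) scale it was -0.03, with 4 of 8 genes lower. In wild type males edgeR called 0 of 39 members (percent of all genes called 0), 1 was higher and 2 lower at an unadjusted p under 0.05 (2.74% of all genes higher, 1.33% lower), DESeq2 called 1 (Sult4a1; 0.245% of all genes) and voom called 4 (7.81% of all genes). Sult4a1 was read at 1.86, 2.90 and 2.23 CPM in controls and 4.45, 6.68 and 10.1 CPM with succinate (1.59 ± 0.37, adjusted p = 0.9473), and Ugt1a1 was lower without overlap (-0.52 ± 0.19, adjusted p = 0.9473). Without wild type male succinate replicate 1, edgeR called Sult4a1 (1.80) and Gstp1 (1.09), and 5.8% of all genes. In Ptk6-/- males edgeR, DESeq2 and voom called 0 of 39 members (percent of all genes called by edgeR 0), and 5 were higher at an unadjusted p under 0.05 (5.66% of all genes higher, 2.09% lower). Gstp1, read at 142, 192 and 182 CPM in controls, was read at 925, 227.8 and 256 CPM with succinate (1.54 ± 0.60, adjusted p = 0.6003, and 0.47 without replicate 1). The value of 925 CPM came from the shallowest library, Ptk6-/- male succinate replicate 1, and the members' median in this comparison was 0.28 on counts but -0.32 on the log2(FPKM + 1) scale, where the median of all genes was -0.45.

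In the average over sexes and treatments, 23 of 25 glutathione transferases were lower in Ptk6-/- mice (median log2 fold change -0.25), 6 of 8 sulfotransferases were lower, and 7 of 12 glucuronosyltransferases were higher (median 0.22). Over all 45 members the median was -0.22, and over all genes it was -0.03. edgeR and DESeq2 called 0 members (0.0277% of all genes by edgeR), 8 were lower and 0 higher at an unadjusted p under 0.05 (7.52% of all genes lower, 5.83% higher), and voom called 26, where it called 38.6% of all genes.

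Gsta4 had the smallest p of the genotype average. It ran from 7.95 to 34.4 CPM in the 12 wild type libraries (median 18.0) and from 6.31 to 25.6 CPM in the 12 Ptk6-/- libraries (median 12.35), with a log2 fold change of -0.65 ± 0.21 (adjusted p = 0.2904). Sult1a1, a phenol sulfotransferase, ran from 4.625 to 37.3 CPM in wild type (median 6.42) and from 3.48 to 9.05 CPM in Ptk6-/- libraries (median 4.89, -0.80 ± 0.27, adjusted p = 0.2987). Its highest value, 37.3 CPM, belonged to the wild type female library with heart transcripts, and without the 3 libraries that stood apart the change was -0.54 (adjusted p = 0.2332). Sult4a1 (-0.52 ± 0.18), Gstm4 (-0.37 ± 0.16) and Mgst1 (-0.43 ± 0.19) were also lower, with adjusted p from 0.3064 to 0.3501. With transcript length as an offset the estimates were nearer 0, at -0.43 for Gsta4, -0.57 for Sult1a1, -0.37 for Sult4a1, -0.15 for Gstm4 and -0.25 for Mgst1. Of the members above 0, the smallest p-values belonged to Ugt1a7c, a phenol glucuronosyltransferase (0.38 ± 0.24, adjusted p = 0.4799), and Ugt1a6a, its neighbour (0.76 ± 0.50, adjusted p = 0.4898), and Ugt2b35 stood at 0.19 ± 0.19 (adjusted p = 0.6744).

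**Figure D3:**
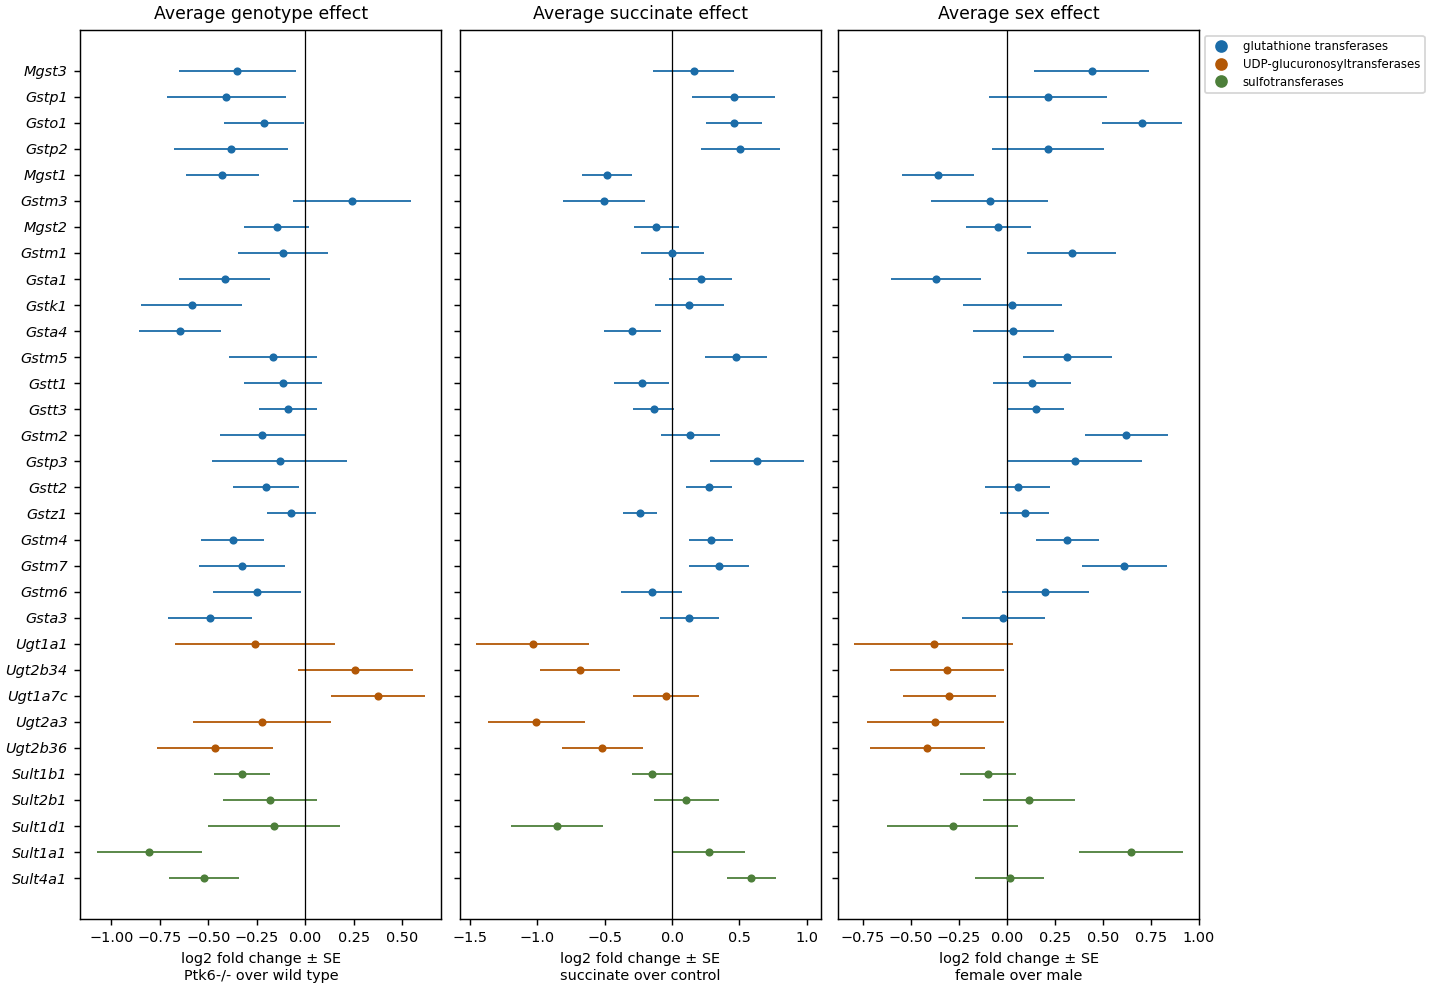
Average log2 fold change ± SE of the 32 members with at least 10 counts in every library, for genotype (Ptk6-/- against wild type), succinate (against control) and sex (female against male). Most glutathione transferases lie left of 0 for genotype, and most glucuronosyltransferases lie left of 0 for succinate and for sex.

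Control males held the smallest adjusted p-values for genotype. Of 40 members 31 were lower in Ptk6-/- control males, 21 of 24 glutathione transferases among them, and the members' median was -0.28. By edgeR 0 were called (0.739% of all genes), 3 were higher and 9 lower at an unadjusted p under 0.05 (12.7% of all genes higher, 12.5% lower), and DESeq2 and voom called 0 at the 2-fold limit. The groups did not overlap in 12 members (30%), against 31.4% of all genes. The members' median was -0.08 when transcript length was modelled as an offset and 0.13 on the log2(FPKM + 1) scale, where 10 of 37 members were lower and the median of all genes was 0.25, so the direction of the group depended on the scale.

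Gstt2, a theta-class enzyme, was read at 23.9, 22.0 and 25.2 CPM in wild type and 17.0, 16.0 and 18.4 CPM in Ptk6-/- control males (-0.49 ± 0.13, adjusted p = 0.0633). Gstp1 was read at 259, 241 and 249.6 CPM against 142, 192 and 182 CPM (-0.56 ± 0.15, adjusted p = 0.06474), and its near copy Gstp2 at 114, 91.2 and 91.5 CPM against 52.65, 69.5 and 71.7 CPM (-0.64 ± 0.17, adjusted p = 0.06636). Mgst3 was read at 239, 216 and 219 CPM against 117, 174 and 169 CPM (-0.57 ± 0.17, adjusted p = 0.08732). In each of these 4 genes all wild type values lay above all Ptk6-/- values. With the length offset the estimate for Gstp1 was -0.29 (adjusted p = 0.2309) and that for Gstp2 was -0.30 (adjusted p = 0.2231), while Gstt2 stood at -0.54 (adjusted p = 0.0917). On the log2(FPKM + 1) scale Gstp1 stood at -0.12, Gstp2 at -0.19 and Gstt2 at -0.05. Ugt1a7c (0.39, adjusted p = 0.1256) and Ugt2b34 (0.27) were higher in Ptk6-/- control males.

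In control females the members leaned the same way, with 29 of 40 lower in Ptk6-/- mice, 18 of 24 glutathione transferases lower (median -0.37) and a median over members of -0.35. edgeR and DESeq2 called 0 (0.0158% of all genes by edgeR), 8 were lower and 0 higher at an unadjusted p under 0.05 (5.03% of all genes lower, 6.08% higher), and voom called 16 (10.4% of all genes). The groups did not overlap in 7 members, all lower, against 18.9% of all genes. Mgst1 was read at 211, 236.8 and 281 CPM in wild type and 105, 99.3 and 154.7 CPM in Ptk6-/- control females (-0.99 ± 0.26, adjusted p = 0.3669). Sult1b1 was read at 337.5, 412 and 431 CPM against 206, 218 and 249 CPM (-0.78 ± 0.24, adjusted p = 0.3693). Both genes had groups without overlap.

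Ptk6-/- female control replicate 3 lay far from its 2 group mates in many members. Gstp1 was read at 135.5, 127.9 and 662 CPM in that group, Mgst3 at 125.5, 118.6 and 854 CPM and Sult2b1 at 111, 109 and 476 CPM, so this mouse read above all wild type control females in these genes (Gstp1 313, 582 and 441 CPM). Without it, edgeR called 12 members, all lower in Ptk6-/- mice, against 9.65% of all genes, with Gstp1 at -1.71, Mgst3 at -1.43 and Mgst1 at -1.20. The enterocyte marker sum of Ptk6-/- female control replicate 3 was 56510 CPM, and that of the other Ptk6-/- female controls was 22710 and 29630 CPM. Wild type control females read 47200 to 53440 CPM. The length slope was 0.0721 and 0.116 in the other Ptk6-/- female controls and -0.0827 to -0.0087 in the wild type ones. The part of either in these differences was not tested. With the length offset and all mice of both groups, Mgst1 stood at -0.77 (adjusted p = 0.3298, edgeR).

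The same comparison was made in mice given succinate. In males edgeR and DESeq2 called 0 of 40 members (percent of all genes called by edgeR 0), 1 was lower at an unadjusted p under 0.05 (1.1% of all genes higher, 1.62% lower), voom called 3 (9.52% of all genes), and the members' median was 0.07 on counts and -0.50 on the log2(FPKM + 1) scale, where the median of all genes was -0.43. The lone member was Sult4a1 (-1.15 ± 0.49, adjusted p = 0.9999). In females all 3 tools called 0 of 41 members (percent of all genes called by edgeR 0), 1 was higher and 3 lower at an unadjusted p under 0.05 (1.62% of all genes higher, 2.9% lower), and 20 of 24 glutathione transferases were lower in Ptk6-/- mice (median -0.44, and -0.28 without Ptk6-/- female succinate replicate 3). The enterocyte sum was also lower, at 36670, 27230 and 33110 CPM in wild type against 22180, 18060 and 19000 CPM in Ptk6-/- females, without overlap, and its part in the difference was not tested. Gstk1 was read at 24.35, 34.45 and 18.39 CPM in wild type and 14.5, 13.7 and 9.38 CPM in Ptk6-/- females given succinate (-1.03 ± 0.33, adjusted p = 0.9314). Gsta4 (-1.29 ± 0.41) and Gstm1 (-1.16 ± 0.38) had the same adjusted p of 0.9314. Without the wild type library with heart transcripts the estimates were -0.84 for Gsta4, -0.82 for Gstm1 and -0.80 for Gstk1.

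Averaged over genotypes and treatments, 19 of 25 glutathione transferases were higher in females (median 0.20). The 11 glucuronosyltransferases other than Ugt2a1 had estimates below 0 (median -0.38), 0 of them at an unadjusted p under 0.05. That of Ugt1a9 had no usable precision (SE 8023). By group, 6 of 9 were higher in females among wild type controls (median 0.09). Among Ptk6-/- controls 7 of 9 were lower (median -0.12). With succinate 9 of 9 were lower in wild type (median -0.70) and 6 of 9 in Ptk6-/- females (median -0.54). Ugt2a1 met the count limit through male libraries alone, so its difference between the sexes was set by that limit and is left out here. edgeR called 0 of the other 44 (0.447% of all genes), 5 were higher and 1 lower at an unadjusted p under 0.05 (8.65% of all genes higher, 6.63% lower), DESeq2 called 1 (Gsto1; 3.21% of all genes) and voom called 3 (6.41% of all genes). Without wild type female succinate replicate 3, edgeR called 3 (4.56% of all genes), Gsto1 and Gstm7 higher and Ugt2b36 lower. Gsto1 ran from 201 to 433 CPM in the 12 male libraries (median 280.5) and from 227 to 827 CPM in the 12 female libraries (median 419.6), with a log2 fold change of 0.70 ± 0.21 (adjusted p = 0.1355). The mu-class genes Gstm2 (0.62 ± 0.22, adjusted p = 0.189) and Gstm7 (0.61 ± 0.22, adjusted p = 0.2048) and the sulfotransferase Sult1a1 (0.64 ± 0.27, adjusted p = 0.2706) were higher in females, and each had its highest value in the wild type female library with heart transcripts. Without the 3 libraries that stood apart, Sult1a1 stood at 0.38 (adjusted p = 0.33). Mgst1 (-0.36 ± 0.19, adjusted p = 0.3655) and Gsta1 (-0.37 ± 0.23, adjusted p = 0.4574) were lower.

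Among wild type controls 32 of 40 members were higher in females, with a median of 0.45 where all genes had 0.02. edgeR, DESeq2 and voom called 0 (0.0422% of all genes by edgeR), 13 were higher and 2 lower at an unadjusted p under 0.05 (9.08% of all genes higher, 6.21% lower), and 13 had groups without overlap (12 higher, 1 lower), against 23.6% of all genes. Sult2b1 was read at 153.5, 149.9 and 157.5 CPM in males and 231, 335.5 and 312 CPM in females (0.90 ± 0.18, adjusted p = 0.2489). Gstp1 was read at 259, 241 and 249.6 CPM against 313, 582 and 441 CPM (0.80 ± 0.23) and Sult1b1 at 250, 279 and 270.4 CPM against 337.5, 412 and 431 CPM (0.53 ± 0.16), both with an adjusted p of 0.2489. In these 3 genes every female value lay above every male value. The enterocyte marker sum was 31350 to 33530 CPM in these males and 47200 to 53440 CPM in these females, and its part in the difference was not tested.

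In the other sex comparisons 3 to 5 members had an unadjusted p under 0.05. Among Ptk6-/- controls edgeR, DESeq2 and voom called 0 of 40 (0.0311% of all genes by edgeR), and 3 were lower in females at an unadjusted p under 0.05 (1.82% of all genes higher, 1.41% lower), Ugt1a7c (-0.68 ± 0.26) and Gsta1 (-0.83 ± 0.35) among them, both with an adjusted p of 0.8733. Among wild type mice given succinate the same tools called 0 of 39 (0.0105% of all genes by edgeR), with 2 higher and 1 lower at an unadjusted p under 0.05 (2.89% of all genes higher, 1.46% lower), Gstm2 at 1.25 ± 0.47 and Mgst1 at -1.16 ± 0.49 (adjusted p = 0.9722 for both). Without the library with heart transcripts Gstm2 stood at 0.66. Among Ptk6-/- mice given succinate 30 of 41 members were lower in females (median -0.48, but 0.31 on the log2(FPKM + 1) scale, where all genes had a median of 0.49). edgeR and DESeq2 called 0 there (0.00527% of all genes by edgeR), voom called 1 (3.78% of all genes), and 2 were higher and 3 lower at an unadjusted p under 0.05 (4.65% of all genes higher, 4.44% lower). Sult2b1 was read at 501, 191.7 and 192.9 CPM in those males and 141.5, 150.5 and 120.7 CPM in those females (-1.12 ± 0.44, adjusted p = 0.5196), without overlap. Without Ptk6-/- male succinate replicate 1 the estimate was -0.47, and on the FPKM scale the groups overlapped.

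The tests of differences between effects gave no member past the threshold in any of the 4 interactions by edgeR, DESeq2 or voom. For sex by succinate, 2 members were higher and 7 lower at an unadjusted p under 0.05 (3.99% of all genes higher, 4.28% lower, and 0.0738% called), and, leaving out Ugt2a1, 33 of 44 estimates were below 0, which is a succinate effect lower in females than in males. Sult2b1 (-1.54 ± 0.48, adjusted p = 0.296) and Mgst2, which can make leukotriene C4 (-0.98 ± 0.34, adjusted p = 0.3676), had the smallest p-values of that interaction. Without wild type female succinate replicate 3, edgeR called 1 member, Ugt2b5 (-2.30), and 0.758% of all genes. At an unadjusted p under 0.05, 1 member was higher for genotype by succinate (1.8% of all genes higher, 4.07% lower), 1 was higher for sex by genotype (2.55% of all genes higher, 2.03% lower), and 2 were higher for the interaction of all 3 factors (3.03% of all genes higher, 2.96% lower), and 0% of all genes were called by edgeR in these 3 interactions. The smallest p-values belonged to Gsta5 and Gsto2 for genotype by succinate (adjusted p = 0.8452 and 0.8473) and to Ugt1a9 and Sult1a1 for sex by genotype (Sult1a1 -1.10 ± 0.54, adjusted p = 1, and -0.21 without the 3 libraries that stood apart). For all 3 factors they belonged to Sult4a1 (1.77 ± 0.73, adjusted p = 0.8162) and Ugt2b35 (1.76 ± 0.78, adjusted p = 0.8186). Without the 3 libraries that stood apart Sult4a1 stood at 1.93 and Ugt2b35 at 1.13. Comparisons that use the same group share its mice, so their estimates are not independent of each other.

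**Figure D4:**
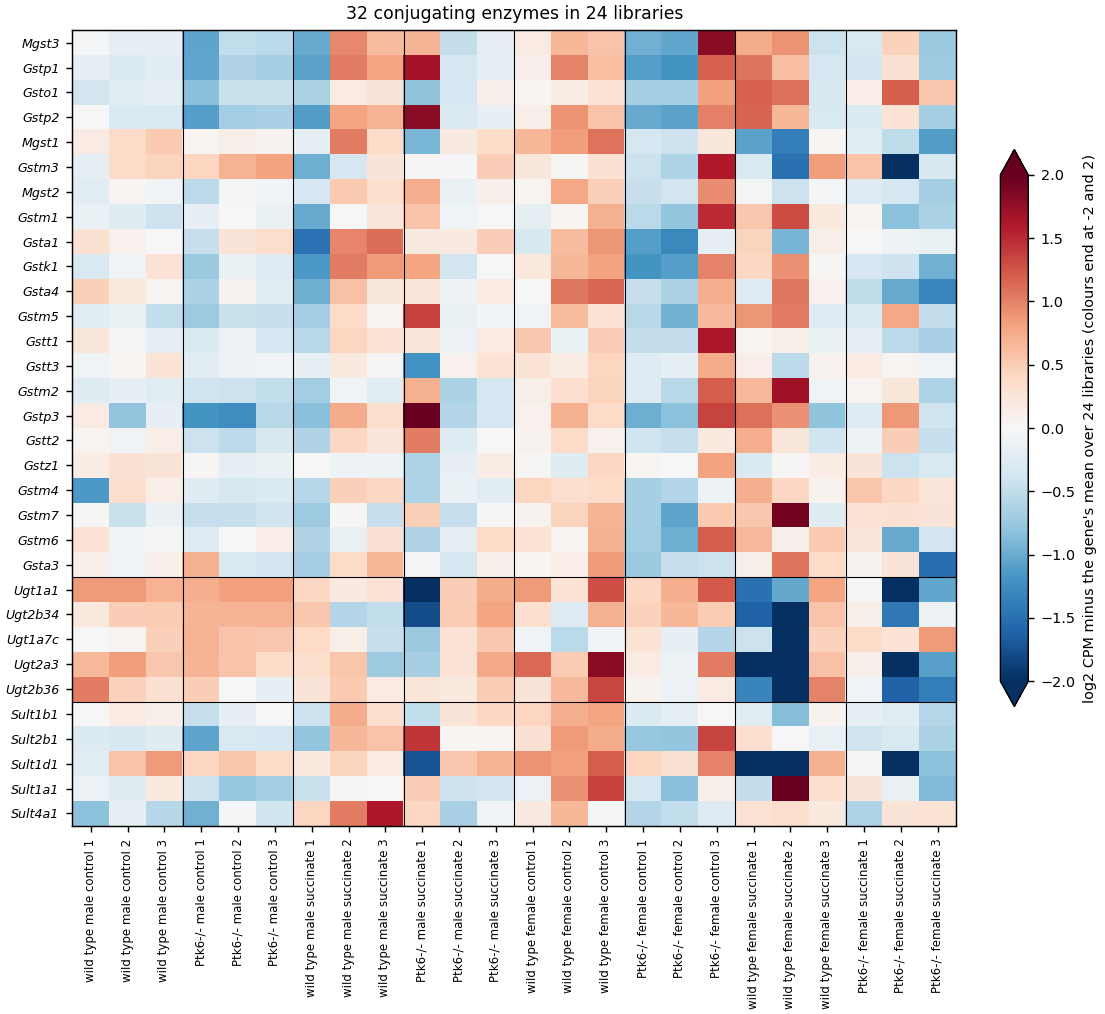
log2 CPM minus the gene's mean over 24 libraries for the 32 members with at least 10 counts in every library (rows) in each library (columns), with colours ending at -2 and 2. Ugt and Sult1d1 rows are darkest on the low side in several succinate libraries, and whole columns lean to the same side, as in Ptk6-/- female control replicate 3.

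In some libraries many members stood high or low together. Of the 32 members with at least 10 counts throughout, 22 had Ptk6-/- female control replicate 2 among their 5 lowest libraries, 20 had wild type male succinate replicate 1 and 19 had Ptk6-/- female control replicate 1. Wild type female control replicate 3 and Ptk6-/- female control replicate 3 were each among the 5 highest libraries of 21 members. Mice of the same group thus stood at opposite ends of the range. The length slope was 0.116 in Ptk6-/- female control replicate 2, 0.109 in wild type male succinate replicate 1 and -0.0956 in Ptk6-/- female control replicate 3, and its part in this was not tested. Other libraries were split, with Ptk6-/- male succinate replicate 1 among the 5 lowest of 11 members and the 5 highest of 13. Wild type female succinate replicate 2 stood at 12 and 12, and wild type female succinate replicate 1 at 8 and 12. The same counts were not made over all genes.

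The Ugt1a genes were also summed, because they share their last exons and the way shared reads were counted is not given in the sources used here. The sum of the 5 genes ran from 51.8 to 278 CPM, a 5.36-fold range, against 107.7-fold for Ugt1a1 alone. Ugt1a1 made up 1.9 to 80.2% of the counts of the locus (median 56.8%) and Ugt1a7c 19.2 to 86.2% (median 41.5%). In the library with the least Ugt1a1, Ptk6-/- female succinate replicate 2, Ugt1a7c stood at 86.8 CPM, within the range of the controls. The average succinate effect on the sum was -0.56 ± 0.24 (adjusted p = 0.2477). Ugt1a9 had 986 counts in Ptk6-/- female succinate replicate 1 and 0 to 137 in the others.

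**Figure D5:**
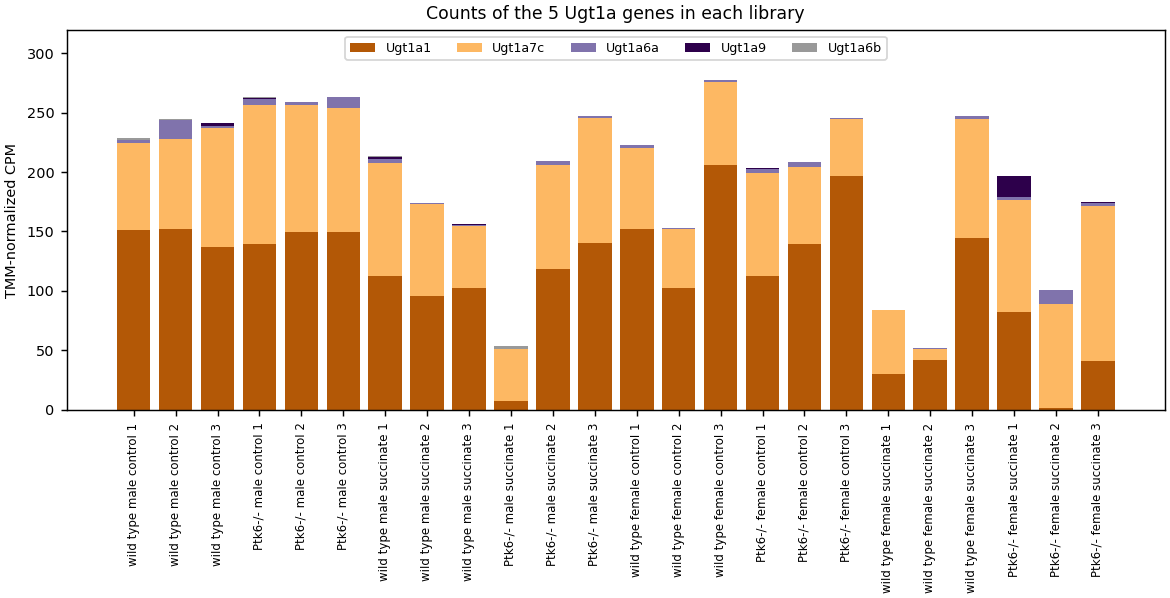
CPM of the 5 Ugt1a genes stacked for each of the 24 libraries. The Ugt1a1 segment nearly vanishes in Ptk6-/- male succinate replicate 1 (7.68 CPM) and Ptk6-/- female succinate replicate 2 (1.91 CPM). The Ugt1a7c segment stands at 43.3 CPM in the first, under the lowest control (48.1 CPM), and at 86.8 CPM in the second.

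Other members are near copies of each other. The proteins of Gstp1 and Gstp2 were identical at 97.1% of residues, those of Ugt1a6a and Ugt1a6b at 97.2% and those of Ugt2b5 and Ugt2b38 at 96.4%. In the alpha class Gsta2 and Gsta5 were identical at 96.4%, Gsta1 and Gsta2 at 95.1% and Gsta1 and Gsta5 at 93.7%. The summed count of these 3 genes stood at -0.40 for the sex average (adjusted p = 0.4217) and at 0.57 for genotype by succinate (adjusted p = 0.9146). Gstp1 took 69.5 to 75.2% of the counts of the Gstp1 and Gstp2 pair (median 71.8%) in all libraries, a narrow range. Their summed count was lower in Ptk6-/- control males by a log2 fold change of -0.58 (adjusted p = 0.07014), and by -0.59 (adjusted p = 0.07039) with the pseudogene Gstp-ps added. The separate values of these copies are uncertain to the extent that shared reads could be split between them.

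The members at the lower end were given by counts. Ugt2a1 was counted in 5 libraries, all male (3, 12, 5, 16 and 12 counts), and had 0 counts in all female libraries. Sult5a1 had 0 to 32 counts, Gsto2 0 to 24, Ugt1a6b 0 to 28 and Gsta5 0 to 238. Fitted fold changes of such genes depend on the prior count and are given only where another processing reversed their sign. On the FPKM scale Sult6b1 averaged 0.0770, Sult5a1 0.0346 and Ugt2a1 0.0125.

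The genes around the pathway were read as 7 lists. Averaged over groups, edgeR called 3 of their genes with succinate, against 1.03% of all genes. Alox5ap, which presents arachidonate for leukotriene synthesis and is made by tuft cells among others, rose by 1.93 ± 0.31 (adjusted p = 0.001869). It was read at 1.68 to 5.57 CPM in controls, 39.6, 42.7 and 6.31 CPM in wild type females and 13.1, 55.4 and 23.96 CPM in Ptk6-/- females given succinate. Males given succinate read 4.78, 10.3 and 10.8 CPM in wild type, and 3.29, 1.40 and 4.52 CPM in Ptk6-/- mice, where no library passed the highest control. Gpx2, the gastrointestinal glutathione peroxidase, rose by 1.39 ± 0.31 (adjusted p = 0.03044), and Nr1h4, the bile acid receptor FXR, fell by 0.75 on the log2 scale (SE 0.15, adjusted p = 0.01787). Without the 3 libraries that stood apart, Gpx2 stood at 1.20 (adjusted p = 0.1416) and Nr1h4 at -0.63 (adjusted p = 0.05158), and Alox5ap kept its call at 1.87 (adjusted p = 0.01481). Gpx2 also missed the threshold in 15 of 24 fits that each left out a library (adjusted p up to 0.07454), while Nr1h4 and Alox5ap passed it in all 24. On the log2(FPKM + 1) scale Nr1h4 missed it (-0.77, adjusted p = 0.2349).

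By list, the succinate average had 1 higher call among 12 genes of glutathione supply and use, 1 lower call among 16 regulators and 1 higher call among 10 relatives of the transferases. No call was made among 10 genes of UDP-glucuronate and PAPS supply, 9 of export and deconjugation, 12 targets of Nfe2l2, or 10 targets of Ahr, Nr1i2 or Nr1i3. The lists' medians were -0.04 for glutathione supply, -0.11 for UDP-glucuronate and PAPS supply, -0.31 for export, -0.28 for regulators, 0.26 for Nfe2l2 targets and -0.40 for the targets of the xenobiotic receptors. Among genes that missed the threshold, Ltc4s, the leukotriene C4 synthase, stood at 1.72 (adjusted p = 0.05266), Cbr3 at 1.13 (adjusted p = 0.06401), Cyp3a25 at -1.72 (adjusted p = 0.09619) and Nr1i2, the xenobiotic receptor PXR, at -0.45 (adjusted p = 0.1802). For the genotype average no gene of any list was called, and for the sex average the lone call was Alox5ap, higher in females by 1.42 ± 0.30 (adjusted p = 0.03833), which missed the threshold in 17 of 24 fits that each left out a library (adjusted p up to 0.09488).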

How the data were processed

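Whole distal jejunum of 24 mice was profiled by stranded, polyadenylated RNA sequencing. The authors deposited a table of read counts per gene, not normalized, and a table of FPKM values per gene. The submitters' processing notes name GRCm39, FastQC and StringTie, and the counting program is not given in the sources used here. The members, gene lists and motifs were chosen with earlier results of these data known. Samples were grouped by genotype, sex and treatment as labelled, and every count column was assigned to a sample (0 columns without one).

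Counts were tested over all genes with edgeR 4.0.16 (R 4.3.3), using TMM scaling, the quasi-likelihood test and Benjamini-Hochberg adjustment. Each of 12 pair comparisons was fitted on its 6 libraries, keeping genes that 3 or more libraries counted 10 times or more, and 7 average effects and interactions were fitted on all 24. A call needed an adjusted p under 0.05, and in pair comparisons also a 2-fold change. Differences run Ptk6-/- minus wild type, succinate minus control and female minus male. Exact permutation of 3 against 3 mice cannot give a p under 0.1, so none was used. Levels between genes were compared on FPKM. Named members were the highest by FPKM in each subfamily, the up to 5 with the smallest p in each direction of an average effect and the 2 with the smallest p in each interaction, and of the lists any gene called in an average effect. Other members named in pair comparisons were chosen after their values were seen.

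Alternatives were DESeq2 1.42.0, limma 3.58.1 with voom weights, limma on log2(FPKM + 1) with a mean of at least 0.5 FPKM, other size factors, no filter, a length offset, a replicate block, summed near copies and leaving out each library. A further 3 were added after seeing the data: the sum with Gstp-ps, the fits without the 3 libraries that stood apart, and DESeq2 without its filters. Protein identity was taken from the longest reading frame of GENCODE M21 transcripts. The code was tested on simulated data. Replicates are separate mice.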

Additional observations from a re-analysis of the deposited data

Results flagged for a closer look

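The sex effect took opposite directions in different groups for 3 members, in each case with male and female CPM that did not overlap. The same held for 3.35% of the 20409 genes tested for sex in at least 1 group, against 7.14% of the 42 members tested. Sult2b1 was higher in females among wild type controls (log2 fold change 0.90) and lower in females among Ptk6-/- mice given succinate (-1.12), and the sex by succinate interaction was -1.54 (adjusted p = 0.296). The value of -1.12 was -0.47 without Ptk6-/- male succinate replicate 1, which read Sult2b1 at 501 CPM where the other 2 males read 191.7 and 192.9 CPM. On the log2(FPKM + 1) scale it was -0.19 and the groups overlapped. Sult4a1 was higher in females among wild type controls (0.76) and lower among wild type mice given succinate (-0.83), with a sex by succinate interaction of -0.74 (adjusted p = 0.6203). Ugt2b35 was lower in females among wild type mice given succinate (-0.74) and higher among Ptk6-/- mice given succinate (0.67), and its interaction of all 3 factors had an adjusted p of 0.8186. No interaction passed the threshold in edgeR.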

How the results depend on the processing

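edgeR called 0 members in all 19 comparisons. limma-voom called 26 for the average genotype effect, 15 for succinate and 3 for sex, 16 for genotype in control females, 3 for genotype in males given succinate, 4 for succinate in wild type males, 2 for succinate in Ptk6-/- females and 1 for sex in Ptk6-/- mice given succinate. DESeq2 called 2 for the average succinate effect and 1 each for the average sex effect and for succinate in wild type males, wild type females and Ptk6-/- females, and without its filters 1 in each of these 5. Leaving out 1 library gave 0 to 8 calls for the average succinate effect, 0 to 3 for sex and 0 to 1 for sex by succinate, each at its highest without wild type female succinate replicate 3. It gave 0 to 7 for succinate in wild type females (without the same library), 0 to 12 for genotype in control females (without Ptk6-/- female control replicate 3) and 0 to 2 for succinate in wild type males (without replicate 1 of that treatment). A pair of estimates of thinly counted members reversed under voom, Gsto2 for genotype (-0.37) and Ugt1a6b for sex (0.12). The causes were not tested. Every other alternative gave 0 calls in every comparison. Replicate numbers did not pair the mice: 36 correlations of same-numbered mice ran from -0.479 to 0.337 and 7 passed 0.1, and the replicate block gave 0 members called. Depth limited the members under 10 counts in any library, and the voom counts stand beside 38.6%, 21.9% and 6.41% of all genes called for genotype, succinate and sex.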

Other observations

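The processed pseudogene Gstp-ps, which is not protein coding and entered no comparison of single genes, was read at 11.1 to 98.7 CPM (median 21.3). Hpgds, the prostaglandin D synthase that belongs to the sigma class of glutathione transferases but not to the names used here, stood at 0.59 for the average genotype effect (adjusted p = 0.2691, edgeR), and at 1.25 to 3.61 CPM in wild type and 2.16 to 7.17 CPM in Ptk6-/- libraries.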
